A study of Homo sapiens with 28 samples.

Results

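The expression data described here come from SK-N-MC cells in which CHD4 was silenced for 24 h with the second of a pair of inducible short hairpin RNAs, called shCHD4#2. The members were chosen by their titles and treatment labels, and comprise 3 shCHD4#2 libraries at 24 h of the 28 libraries in the series. They were set against 5 libraries of cells carrying a scrambled hairpin, shScramble, at 24 h, whose genotype is labelled wildtype. Every culture of both groups received 100 ng/ml doxycycline for 24 h, so the controls share the drug and the induction of a hairpin. For comparison, the 3 shCHD4#1 libraries at 24 h and the 3 shCHD4#2 and 5 shScramble libraries at 48 h of the same dose were used. The 3 shFLI1 libraries at 24 h, named for a hairpin against FLI1 and given the same dose, entered the main fit only for its estimate of spread. The labels call the samples biological replicates and do not say whether a line was 1 clone, so p-values measure the spread between these cultures. In bulk RNA, fewer cells that express a gene and less of its RNA per cell cannot be told apart.

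SK-N-MC is an established human cell line of Ewing sarcoma, a bone and soft tissue tumour whose driver is the fusion transcription factor EWS-FLI1. The ATPase CHD4 slides and ejects nucleosomes. It is the motor of the nucleosome remodelling and deacetylase complex, NuRD, in which it works beside histone deacetylases, methyl-CpG binding proteins and scaffold subunits, and of the smaller ChAHP complex with ADNP and HP1 proteins. NuRD keeps many lineage-inappropriate genes silent and also takes part in DNA replication and repair. A short hairpin is processed to a guide RNA that lowers messages it pairs with. The series asks how silencing CHD4 or EWS-FLI1 alters expression.

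The 8 libraries held 49724797 to 64775441 recovered reads. Values are normalised read counts, that is, reads per gene divided by a size factor per library. The libraries were of 2 kinds: replicates 1 and 2 of each group gave 0.468% to 0.498% of reads to processed pseudogenes, and the other replicates 0.354% to 0.383%. The first principal component of the 8 libraries, 40.4% of the variance, parted these kinds, and the second, 27.6%, parted shCHD4#2 from shScramble. Of 8 Ewing sarcoma markers none was higher and 2, CCND1 and CD99, were lower, with a summed level of 43891 to 50640 in shCHD4#2 libraries, against 57704 to 64792 in shScramble libraries. Some of the markers listed for other cell types were below 10 in every library. They were CD3E and LYZ (blood), PECAM1 and CLDN5 (endothelium), EPCAM, CDH1 and KRT14 (epithelium) and DCN (fibroblasts). Other listed markers of blood, endothelium and fibroblasts were not. In shCHD4#2 libraries the whole lists summed to 236 to 262 for blood, 41.9 to 63.9 for endothelium and 602 to 633 for fibroblasts. In shScramble libraries the sums were 208 to 334, 42.6 to 91.5 and 521 to 1168 in the same order. No marker of these types was called.

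CHD4 (ENSG00000111642, chromosome 12, 6570082 to 6614524, minus strand of GRCh38) was the target of the hairpin. Its normalised read count was 2785, 2975 and 3465 in the 3 shCHD4#2 libraries, against 10099, 10383, 12037, 12352 and 12879 in the 5 shScramble libraries. The highest shCHD4#2 library lay far below the lowest shScramble library, and the means were 3075 ± 351 with shCHD4#2, against 11550.1 ± 1236 with shScramble (SD, n = 3 and 5). The fall was called (log2 fold change -1.91, SE 0.11, limma adjusted p = 5.76e-07), and the fold change stayed between -1.997 and -1.81 over all alternatives. AC006064.6, a gene model that overlaps CHD4 on the same strand, was at -1.22 (limma adjusted p = 9.02e-06), and reads of the pair cannot be told apart here.

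Of 21025 genes tested, 851 were higher with shCHD4#2 (4.05%) and 1474 were lower (7.01%) at a limma adjusted p under 0.05. At least 2-fold changes numbered 322 higher and 220 lower, and the median log2 fold change of called genes was 0.82 for higher and -0.58 for lower ones. All 3 shCHD4#2 values lay above all 5 shScramble values in 1484 genes (7.06%) and below them in 2034 genes (9.67%). Among called genes this held for 773 of the higher and 1362 of the lower. The counts rest in part on single libraries: without shCHD4#2 replicate 2 they were 273 and 613, and without replicate 3 547 were higher and 1277 lower. The main fit does not pair libraries, and with a block for replicate number 1258 genes were higher and 1809 lower. With library kind as a term, 1962 genes were higher (9.33%) and 2722 lower (12.9%). The authors' deposited table of this comparison called 59 higher and 88 lower. That table may rest on a test unlike those used here, so its counts are not like for like.

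The largest rises joined histone genes, a glutamate transporter, cytoskeletal and metabolic genes and several non-coding transcripts. The 12 named rises and 12 named falls were taken only from called genes whose 3 shCHD4#2 values all lay outside the shScramble range. Absence of overlap in these genes is thus a condition of their choice and not a result. H2BC1, which encodes a testis form of histone H2B (chromosome 6, 25726777 to 25727292, plus strand), had values of 37.0, 118 and 152 in the 3 shCHD4#2 libraries, against 2.78, 5.67, 7.09, 11.6 and 7.22 in the 5 shScramble libraries. H2BC14, another histone H2B gene of the large cluster on chromosome 6 (chromosome 6, 27815044 to 27815424, plus strand), had values of 309.9, 477 and 844 in the 3 shCHD4#2 libraries, against 59.3, 32.4, 54.7, 42.2 and 98.7 in the 5 shScramble libraries. In both genes the shCHD4#2 libraries spread widely among themselves. H2BC1 rose (log2 fold change 3.59, SE 0.50, limma adjusted p = 4.31e-04) and so did H2BC14 (log2 fold change 3.20, SE 0.39, limma adjusted p = 1.62e-04).

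SLC1A2 encodes the glutamate transporter that glial cells use to clear the synapse (chromosome 11, 35251205 to 35420063, minus strand). Its values were 64.4, 159 and 92.5 in the 3 shCHD4#2 libraries, against 5.56, 7.29, 18.2, 11.6 and 8.43 in the 5 shScramble libraries. The rise was called (log2 fold change 3.25, SE 0.37, limma adjusted p = 1.00e-04). PPL, the cytolinker periplakin of stratified epithelium, had values of 78.1, 154 and 129 in the 3 shCHD4#2 libraries, against 13.9, 11.3, 19.2, 10.5 and 25.3 in the 5 shScramble libraries (log2 fold change 2.85, SE 0.35, limma adjusted p = 1.62e-04). MISP, an actin-binding protein of the mitotic spindle and cell cortex, had values of 91.7, 175 and 177 in the 3 shCHD4#2 libraries, against 28.7, 37.3, 28.3, 24.3 and 26.5 in the 5 shScramble libraries (log2 fold change 2.27, SE 0.30, limma adjusted p = 2.76e-04). Both genes were low in the controls.

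DHRS2 encodes a mitochondrial short-chain dehydrogenase. Its values were 131, 175 and 192 in the 3 shCHD4#2 libraries, against 26.9, 16.2, 48.6, 14.8 and 37.3 in the 5 shScramble libraries (log2 fold change 2.61, SE 0.48, limma adjusted p = 0.00303). INHBE, the inhibin beta E subunit, a secreted member of the TGF-beta family, had values of 70.0, 313 and 388 in the 3 shCHD4#2 libraries, against 24.1, 30.0, 41.5, 51.7 and 28.9 in the 5 shScramble libraries (log2 fold change 2.56, SE 0.51, limma adjusted p = 0.00511). In INHBE replicate 1 of shCHD4#2 lay closer to the controls than to replicates 2 and 3. PPIC, a cyclophilin of the secretory pathway, averaged 109 ± 37.2 with shCHD4#2, against 19.3 ± 10.3 with shScramble (log2 fold change 2.53, limma adjusted p = 0.00201).

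The other named rises were transcripts of uncertain source, since the sources do not give the strand setting of read counting. The antisense transcript LINC00624 had values of 263, 784 and 558 in the 3 shCHD4#2 libraries, against 62.1, 89.9, 43.5, 43.2 and 24.1 in the 5 shScramble libraries (log2 fold change 3.31, limma adjusted p = 1.46e-04). TSPEAR-AS2 was at 3.22, the pseudogene AACSP1 at 2.87 and CCDC144NL-AS1 at 2.85. In all 12 named rises replicate 1 was the lowest of the 3 shCHD4#2 libraries, and in 10 of the 12 named falls replicate 2 was the lowest.

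The 12 largest falls joined CLEC7A (-2.78) and CLVS1 (-2.67), the furthest down, with the more abundant SET, NPM1 and NCL. SET, an acidic histone chaperone and phosphatase inhibitor (chromosome 9, 128683424 to 128696400, plus strand), had values of 10847, 6966 and 10352 in the 3 shCHD4#2 libraries, against 38812, 32162, 51236, 45421 and 61841 in the 5 shScramble libraries. NPM1, nucleophosmin, the abundant chaperone of the nucleolus (chromosome 5, 171387116 to 171411137, plus strand), had values of 28585, 17749.7 and 26119 in the 3 shCHD4#2 libraries, against 81090.4, 67901, 110117, 96992 and 134622 in the 5 shScramble libraries. NCL, nucleolin, an RNA-binding protein of the nucleolus (chromosome 2, 231453531 to 231483641, minus strand), had values of 19401, 12980.1 and 24178 in the 3 shCHD4#2 libraries, against 45407, 37901, 75799.8, 68594 and 88960.3 in the 5 shScramble libraries. By the rule of choice, in each gene the highest shCHD4#2 value was below the lowest shScramble value. The falls were called for SET (log2 fold change -2.28, SE 0.19, limma adjusted p = 9.02e-06), NPM1 (log2 fold change -2.01, SE 0.21, limma adjusted p = 5.19e-05) and NCL (log2 fold change -1.72, SE 0.27, limma adjusted p = 0.00111). The processed pseudogenes NPM1P27 (-2.29) and SETP14 (-1.99) fell with their parents, and reads may be shared between such near-identical copies.

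TOP2B, topoisomerase II beta, which relieves DNA tangles in non-dividing as well as dividing cells (chromosome 3, 25597905 to 25664907, minus strand), had values of 2914, 2037 and 2182 in the 3 shCHD4#2 libraries, against 8962, 9822, 8421, 8552 and 9152 in the 5 shScramble libraries. HTATSF1, a splicing and repair factor (chromosome X, 136497079 to 136512346, plus strand), had values of 2189, 1385 and 2247 in the 3 shCHD4#2 libraries, against 6882, 5635, 8287, 7137 and 9386 in the 5 shScramble libraries. By the same rule neither gene overlapped between groups. TOP2B fell with a small error (log2 fold change -1.93, SE 0.11, limma adjusted p = 5.76e-07), and HTATSF1 fell as well (log2 fold change -1.96, SE 0.18, limma adjusted p = 1.39e-05).

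PTPN11, the phosphatase SHP2 that relays growth factor signals to RAS (chromosome 12, 112418351 to 112509913, plus strand), had values of 4222, 4096 and 4247 in the 3 shCHD4#2 libraries, against 11661, 10519, 15076, 13868 and 17494 in the 5 shScramble libraries (log2 fold change -1.69, SE 0.14, limma adjusted p = 9.02e-06). The 3 shCHD4#2 values were within a narrow range and the controls were not. MEX3B, an RNA-binding ubiquitin ligase, had values of 179, 174 and 255 in the 3 shCHD4#2 libraries, against 601, 729, 731, 907 and 791 in the 5 shScramble libraries (log2 fold change -1.89, SE 0.16, limma adjusted p = 9.02e-06). CLEC7A, the beta-glucan receptor dectin-1, known from myeloid cells, had values of 38.6, 9.52 and 37.4 in the 3 shCHD4#2 libraries, against 177, 186, 145, 137 and 234 in the 5 shScramble libraries (log2 fold change -2.78, SE 0.36, limma adjusted p = 2.69e-04). CLVS1, a lipid-binding protein of clathrin-coated vesicles, averaged 208 ± 123 with shCHD4#2, against 1364 ± 739 with shScramble (log2 fold change -2.67, limma adjusted p = 0.00252). Its shScramble libraries split by kind, at 592 to 596 in replicates 1 and 2 and 1602 to 2236 in the others, and all shCHD4#2 values lay below both.

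**Figure D1:**
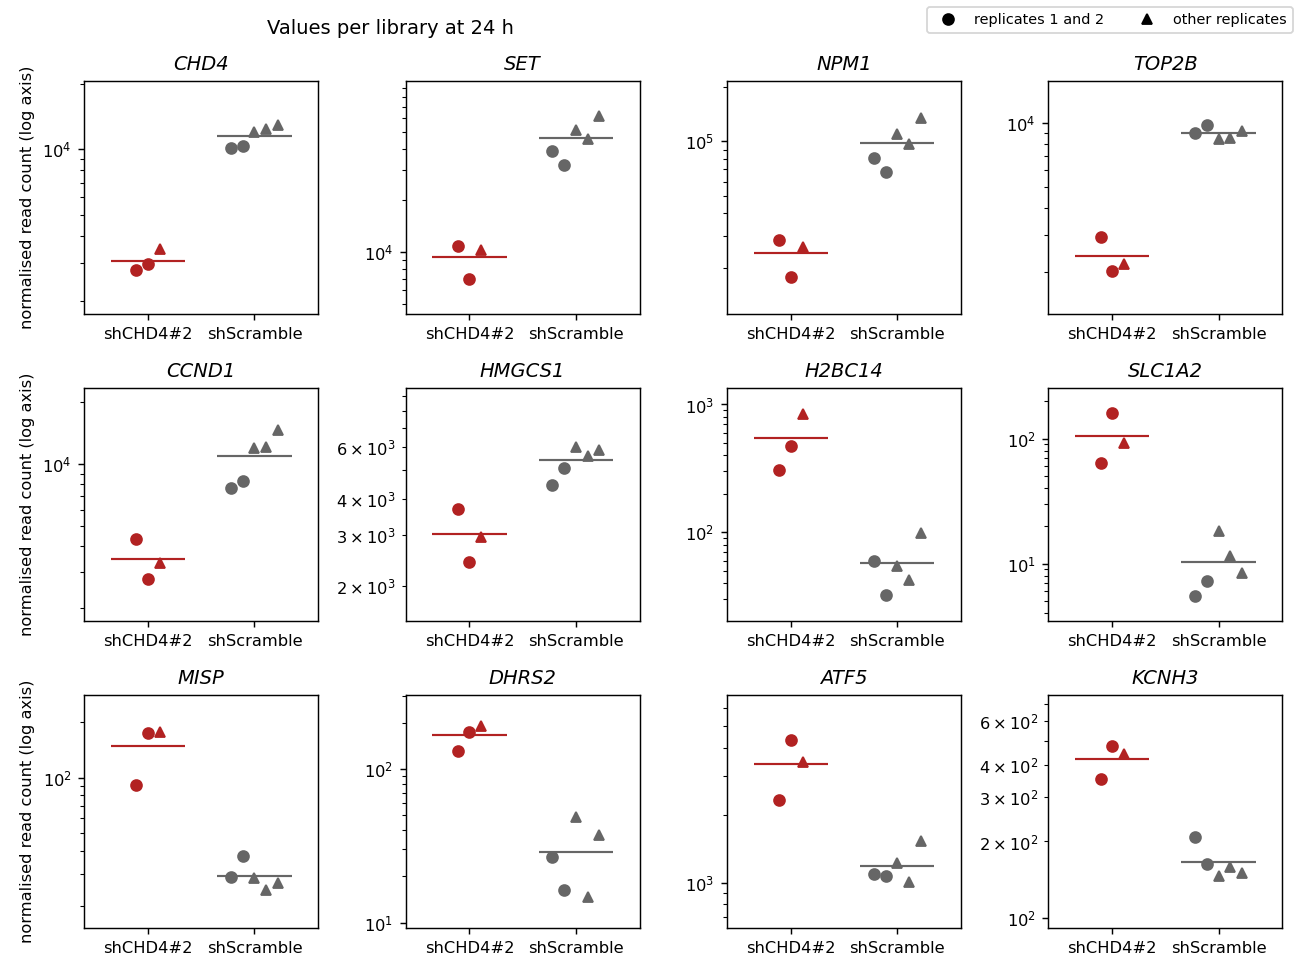
Normalised read count per library at 24 h (log axis) for 12 genes, with the 3 shCHD4#2 libraries on the left and the 5 shScramble libraries on the right of each panel; circles are replicates 1 and 2, triangles the others, and lines mark group means. The groups do not overlap in any of the 12 genes, which was a condition of choice for the named rises and falls among them. CHD4 reaches 3465 at most with shCHD4#2, against at least 10099 with shScramble.

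All 12 named rises were also called with the first hairpin, and of the 12 named falls CHD4 and TOP2B were. These are the largest changes with shCHD4#2, chosen on its own libraries, and their counts say nothing of the other called genes. shCHD4#1 lowered CHD4 to 2989.9 ± 239.5 (SD, n = 3), and the direct contrast of shCHD4#2 with shCHD4#1 gave CHD4 a log2 difference of 0.037 (SE 0.12, limma adjusted p = 0.902). Both hairpins were set against the same 5 shScramble libraries, so values against shScramble are given side by side and the direct contrast, whose difference uses no control library, is the test. SLC1A2 was at 3.25 with shCHD4#2 and 2.81 with shCHD4#1, and PPL at 2.85 and 3.30 in the same order. Of the 12 named rises 2 passed the direct test, H2BC14, higher with shCHD4#2 by 1.52 (limma adjusted p = 0.0410), and MISP, lower with it, at a difference of -1.25 (adjusted p = 0.0280). SET was at -2.28 with shCHD4#2 and -0.067 with shCHD4#1, a direct difference of -2.21 (SE 0.21, limma adjusted p = 3.75e-05). NPM1 differed by -1.71 (adjusted p = 5.73e-04), TOP2B by -1.55 (adjusted p = 1.15e-05) and PTPN11 by -1.59 (adjusted p = 3.75e-05). All 11 named falls other than CHD4 passed the direct test, which uses the libraries they were chosen on, and TOP2B was the 1 of them that was also called with shCHD4#1 (-0.38, adjusted p = 0.0422).

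Over all genes, the direct contrast called 841 higher (4.0%) and 1181 lower (5.62%) with shCHD4#2 than with shCHD4#1, 2022 in all. With a replicate block it called 3482, and without replicate 2 of shCHD4#2 or of shCHD4#1 it called 991 and 874. Without shCHD4#1 replicate 3 it called 1285. The same shCHD4#2 libraries enter this contrast and that against shScramble, so the counts of both are not independent. With shCHD4#1, 1095 genes were higher (5.21%) and 1290 lower (6.14%) than with shScramble.

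The 48 h comparison shares no library with that of 24 h. The 48 h shScramble samples carry the genotype label CHD4 knockdown, against their titles. CHD4 averaged 2749.9 ± 44.1 with shCHD4#2, against 11605 ± 1563 with shScramble at 48 h. At 48 h, 3688 genes were higher (17.5%) and 4276 lower (20.3%) with shCHD4#2. Of the 851 genes higher at 24 h, 696 were higher at 48 h, which is 81.8% of the 24 h list and 18.9% of the 48 h list, and 0 were lower. Of the 1474 genes lower at 24 h, 1368 were lower at 48 h, 92.8% of the 24 h list and 32.0% of the 48 h list, and 1 was higher. All 24 named rises and falls were called in the same direction at 48 h.

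The difference between the effects at 48 h and 24 h passed the test in 208 genes (0.989%), 650 with a replicate block. SLC1A2 was at 4.22 at 48 h, against 3.25 at 24 h (limma adjusted p of the difference = 0.339). SET was at -2.57 at 48 h, against -2.28 at 24 h (adjusted p = 0.669). TOP2B was the single named rise or fall whose effect differed, at -2.68 at 48 h, against -1.93 at 24 h (adjusted p = 0.0123).

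**Figure D2:**
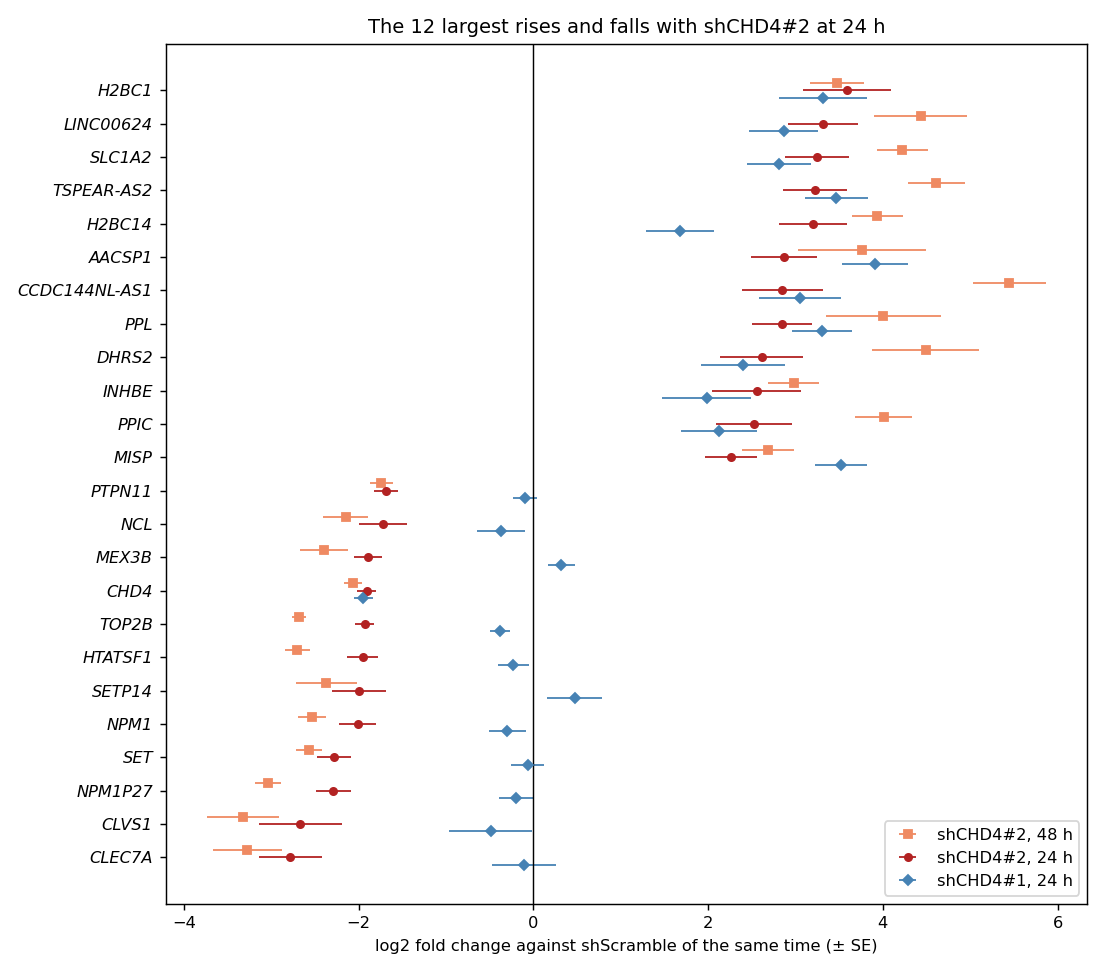
Log2 fold change against shScramble of the same time (± SE) for the 12 largest rises and 12 largest falls with shCHD4#2 at 24 h, shown for shCHD4#2 at 48 h (squares), shCHD4#2 at 24 h (circles) and shCHD4#1 at 24 h (diamonds). All 12 rises lie to the right of 0 in the 3 comparisons. Of the falls only CHD4 and TOP2B were called with shCHD4#1. Its points for the other falls run from -0.49 (CLVS1) to 0.47 (SETP14), most of them below 0.

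Several of the genes that fell encode proteins with long runs of acidic residues, and their coding sequences hold repeats of the codon GAT. The 8-base word GATGATGA was therefore counted on the sense strand, with overlapping copies counted, in the longest coding sequence of each protein-coding gene in GENCODE release 29. This word was chosen after the values were seen, so what follows is a description with no test. CHD4 itself holds 6 copies. The stretches below, of 60 bases each, show where copies are densest in CHD4 and in the named falls that hold the word, with every copy in capitals, 5′ to 3′ on the sense strand.
CHD4, codons 125 to 144: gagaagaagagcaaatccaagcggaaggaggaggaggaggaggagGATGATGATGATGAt
SET, codons 234 to 253: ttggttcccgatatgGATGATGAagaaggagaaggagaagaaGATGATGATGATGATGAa
NPM1, codons 161 to 180: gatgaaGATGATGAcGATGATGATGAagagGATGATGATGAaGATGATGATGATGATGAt
NCL, codons 240 to 259: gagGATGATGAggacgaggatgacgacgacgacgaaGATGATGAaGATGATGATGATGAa
TOP2B, codons 1369 to 1388: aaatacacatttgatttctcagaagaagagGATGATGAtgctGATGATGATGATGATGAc
HTATSF1, codons 733 to 752: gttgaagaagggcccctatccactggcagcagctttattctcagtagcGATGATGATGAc
The stretches of CHD4 (chr12:6601966-6602025, minus strand of GRCh38), NCL (chr2:231460703-231460762, minus strand), TOP2B (chr3:25607305-25607364, minus strand) and HTATSF1 (chrX:136511942-136512001, plus strand) lie within 1 exon each, and those of SET and NPM1 run over an exon junction. SET holds 7 copies in its whole coding sequence, NPM1 10, NCL 8, TOP2B 9 and HTATSF1 4. Of the 12 named falls 6 hold a copy, and CLVS1, CLEC7A, MEX3B and PTPN11 have none in their coding sequences.

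The share of genes called lower rose with the number of copies. It was 8.14% of 12180 genes with no copy, 12.5% of 1525 with 1, 16.1% of 360 with 2, 26.7% of 191 with 3 or 4 and 52.7% of 74 with 5 or more, of which 39 were lower and 0 higher. CHD4 and the overlapping AC006064.6 are among these 74. The median log2 fold change of these classes ran from -0.02 through -0.07, -0.11 and -0.16 to -0.31. With shCHD4#1 the same classes had 7.87%, 9.25%, 6.39%, 7.85% and 9.46% called lower. In the direct contrast, 33 of the 74 genes with 5 or more copies (44.6%) were lower with shCHD4#2 than with shCHD4#1, beside 6.40% of genes with no copy. At 48 h of shCHD4#2 the shares called lower were 22.5%, 31.8%, 37.8%, 47.1% and 67.6%.

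Genes with more copies also have longer coding sequences, with a median of 1314 bases without the word and 3983 with 5 or more. GAAGAAGA, a purine-rich word of the same length, served as a comparison over a like range of lengths, with medians of 1272 and 3966 bases. Its classes had 8.88%, 9.87%, 10.3%, 12.3% and 16.1% of genes called lower. Of the 74 genes with 5 or more copies of the first word, 45.9% were called lower in the first library kind alone, 39.2% in the second, and 39.2% without shCHD4#2 replicate 2. Among genes with 5 or more copies named here after their values were seen, CAND1, which recycles cullin ubiquitin ligases, was at -1.67 (limma adjusted p = 1.81e-06), the translation initiation factor EIF3A at -1.44 (adjusted p = 1.55e-05), the peptidase NRDC at -1.41 (adjusted p = 7.74e-07) and the transcription elongation factor LEO1 at -1.39 (adjusted p = 3.29e-04). Of the 74 genes 60 were below 0 and the others were not. HRC, with 15 copies like EIF3A, was at 0.25 (limma adjusted p = 0.785). TTN, with 10 copies, was at 0.999 (adjusted p = 0.0693).

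The 7-base core GATGATG was also ranked among all 7-base words that at least 500 genes hold and at least 500 lack. Words were ordered by the mean log2 fold change of genes that hold the word minus that of genes that lack it, most negative first. In 3′ untranslated regions the core ranked 1 of 11377 words with shCHD4#2 at both 48 h and 24 h, and 2274 with shCHD4#1. Its mean log2 fold change at 24 h was -0.13 in 1375 genes that hold it and -0.011 in 12955 that do not. In coding sequences it ranked 3 of 13740 words with shCHD4#2 at 24 h, and 2260 with shCHD4#1. With shCHD4#1 the word of rank 1 in 3′ untranslated regions was GTACCAA, which ranked 234 with shCHD4#2. Hairpin sequences were not used here, so whether either word pairs with a hairpin was not tested.

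**Figure D3:**
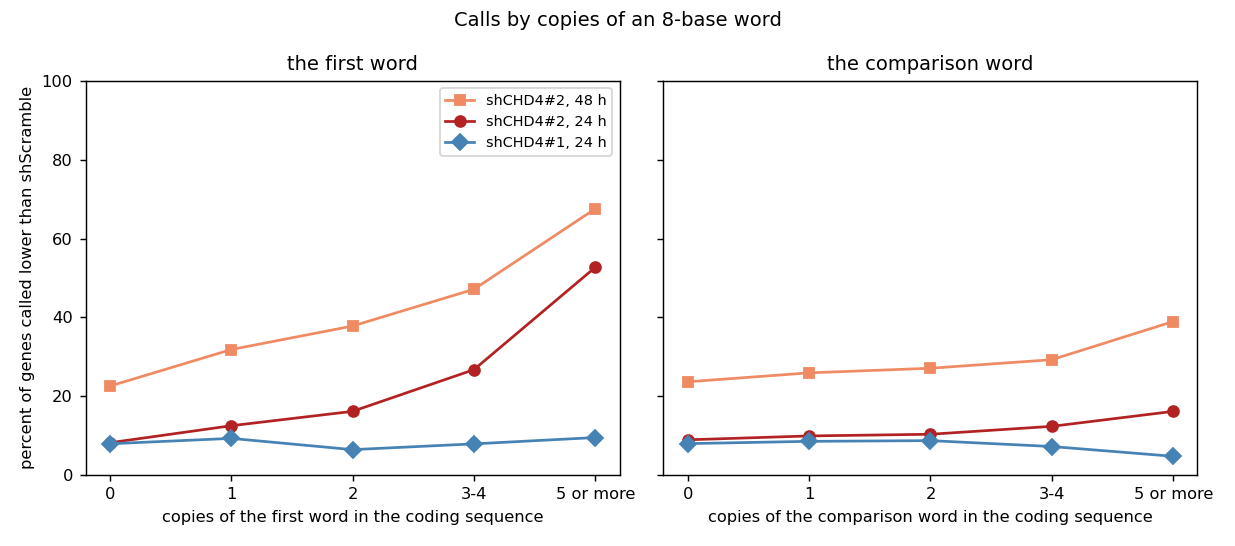
Percent of genes called lower than shScramble, by copies of an 8-base word in the coding sequence, for the first word (GATGATGA, left) and the comparison word (GAAGAAGA, right), with shCHD4#2 at 48 h (squares), shCHD4#2 at 24 h (circles) and shCHD4#1 at 24 h (diamonds). With shCHD4#2 at 24 h the line for the first word climbs to 52.7% and that for the comparison word to 16.1%, while with shCHD4#1 the first word ends at 9.46%.

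Among the partners of CHD4, 21 subunits of NuRD and ChAHP or associated proteins were tested, of which 4 (19.0%) were lower and 0 higher, with a median log2 fold change of -0.06 beside 0.00037 over all genes. Counts of this and the later lists are to be read beside 7.01% lower and 4.05% higher over all genes tested. Of protein-coding genes 9.27% were lower and 4.25% higher. KDM1A, the histone demethylase LSD1, had values of 11416, 10721 and 11696 with shCHD4#2, against 16203, 17508, 19517, 18559 and 21256 with shScramble (log2 fold change -0.72, SE 0.096, limma adjusted p = 3.25e-04). CBX1, which encodes HP1 beta, had values of 3351, 2730.5 and 4254 with shCHD4#2, against 5429.7, 5570.1, 6368, 5988 and 6579 with shScramble (log2 fold change -0.82, SE 0.14, limma adjusted p = 0.00168). RBBP4, a histone-binding subunit, was at -0.60 (limma adjusted p = 0.00333) and the reader protein ZMYND8 at -0.33 (adjusted p = 0.0143). KDM1A and RBBP4 were also lower than with shCHD4#1 (direct differences -0.65 and -0.46, limma adjusted p = 0.00198 and 0.0322).

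The remaining 17 tested members did not pass the test. The deacetylases HDAC1 and HDAC2 were at -0.086 and -0.34, the scaffold subunits MTA1, MTA2 and MTA3 at -0.017, 0.094 and 0.27, the methyl-CpG binding proteins MBD2 and MBD3 at 0.11 and -0.021, and GATAD2A and GATAD2B at -0.30 and 0.30. RBBP7 was at 0.045, CDK2AP1 at -0.044, SALL1 at -0.060, CBX3 at -0.18, CBX5 at -0.16 and ADNP, the DNA-binding subunit of ChAHP, at -0.22. The paralogue CHD3 averaged 16063 ± 2032 with shCHD4#2, against 16019 ± 1725 with shScramble (log2 fold change 0.0029, limma adjusted p = 0.992). CHD5, the neural paralogue, averaged 652 ± 136 with shCHD4#2, against 374 ± 135 with shScramble (log2 fold change 0.88, adjusted p = 0.0870), and it was higher than with shCHD4#1 by 1.23 (adjusted p = 0.0374). With a replicate block 5 of the 21 members were lower and 1 higher, with HDAC2 called at -0.28 (limma adjusted p = 0.0372) and CHD5 at 1.14 (adjusted p = 0.0113), and with library kind as a term 6 were lower and 1 higher. Of 9 CHD remodellers, CHD3 and CHD5 included, 1 was lower, CHD8, with values of 4332, 4166 and 4842 with shCHD4#2, against 6336, 6355, 7073, 6788 and 7884 with shScramble (log2 fold change -0.63, SE 0.094, limma adjusted p = 6.96e-04), and its coding sequence holds 8 copies of the first word.

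Targets that EWS-FLI1 is known to activate were called lower in 12 of 46 and higher in 1, a share of 26.1% lower beside 7.01% of all genes. CCND1, cyclin D1 of the G1 phase, had values of 4339.6, 2775 and 3335 with shCHD4#2, against 7626, 8289, 11999, 12029 and 14625 with shScramble (log2 fold change -1.63, SE 0.22, limma adjusted p = 3.45e-04). All 3 knockdown cultures lay below every control, in which replicates 1 and 2 were the lowest. The direct difference of CCND1 from shCHD4#1 was -1.70 (limma adjusted p = 8.61e-04), where shCHD4#1 itself stood at 0.068 against shScramble. HAP1, a huntingtin-associated transport protein, had values of 5185, 3771 and 4401 with shCHD4#2, against 7597, 8781, 7051, 7351 and 6999 with shScramble (log2 fold change -0.77, SE 0.11, limma adjusted p = 5.39e-04), NPY1R, a neuropeptide Y receptor, averaged 1201 ± 297 with shCHD4#2, against 2418 ± 314 with shScramble (log2 fold change -1.03, SE 0.16, limma adjusted p = 9.32e-04), and the death receptor TNFRSF21 was at -1.02 (adjusted p = 0.00303). TERT, the catalytic subunit of telomerase, was the 1 that was higher, and is named after its values were seen. Without shCHD4#2 replicate 2 the list had 5 lower, and in the second library kind alone 4.

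Of 34 targets known to be repressed by EWS-FLI1, 2 (5.88%) were higher and 3 (8.82%) lower, beside 4.05% and 7.01% of all genes. TNC, the matrix glycoprotein tenascin C, had values of 3129, 2918 and 3297 with shCHD4#2, against 7664, 7234, 5605, 6499.9 and 5249 with shScramble (log2 fold change -1.04, SE 0.14, limma adjusted p = 2.91e-04). SPRY1, an inhibitor of growth factor signalling, averaged 8.53 ± 1.17 with shCHD4#2, against 2.35 ± 0.948 with shScramble (log2 fold change 1.55, limma adjusted p = 0.00465), a low level. COL3A1 (-0.44) and TIMP3 (-0.48) were lower, TIMP3 with an adjusted p of 0.0567 with a replicate block.

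DNA replication genes were lower in 13 of 38 (34.2%) and higher in 0, with a median of -0.32. RRM2, the ribonucleotide reductase subunit that limits nucleotide supply, had values of 7057, 5791 and 8041 with shCHD4#2, against 13502, 13043, 14398, 13587 and 17058 with shScramble (log2 fold change -1.05, SE 0.12, limma adjusted p = 1.06e-04). MCM7, of the replicative helicase, had values of 15147, 11999 and 15299.6 with shCHD4#2, against 23096, 22913, 24602, 21881 and 29019 with shScramble (log2 fold change -0.78, SE 0.12, limma adjusted p = 8.96e-04). The origin protein ORC1 was at -0.73 (adjusted p = 0.00407) and GINS1 at -0.49 (adjusted p = 0.0130). With shCHD4#1, 5 of the 38 were lower, beside 6.14% of all genes. In the direct contrast 3 were lower and 0 higher with shCHD4#2 than with shCHD4#1, beside 5.62% and 4.0% of all genes. The replication count fell to 3 without shCHD4#2 replicate 2 and 2 in the second library kind.

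Mitosis genes were lower in 8 of 34 (23.5%) and higher in 0. Among them was securin, PTTG1, with values of 2066, 1719 and 1936 with shCHD4#2, against 2468, 2684, 2491, 2528 and 2692 with shScramble (log2 fold change -0.43, SE 0.085, limma adjusted p = 0.00443). Others were the checkpoint kinase BUB1B (-0.43), topoisomerase TOP2A (-0.63) and the Aurora kinase AURKB (-0.54). AURKB is also counted among the lower targets that EWS-FLI1 activates. Of these 34 genes 1 was called without shCHD4#2 replicate 2, and 0 in the second library kind. DNA repair and checkpoint genes were lower in 5 of 40 (12.5%) and higher in 1 (2.5%). The helicase BLM, whose coding sequence holds 5 copies of the first word, averaged 3992 ± 369 with shCHD4#2, against 6391 ± 316 with shScramble (log2 fold change -0.68, SE 0.091, limma adjusted p = 3.25e-04). XRCC5 was at -0.58, the ubiquitin ligase RNF168 at -0.39 and the checkpoint kinase CHEK1 at -0.47. 1 repair gene was lower without shCHD4#2 replicate 2.

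p53 targets were higher in 2 of 26 (7.69%) and lower in 1 (3.85%), beside 4.05% and 7.01% of all genes. SESN2, 1 of the 2, is also counted among the higher genes of the ATF4 list below. SESN2, a stress sensor of nutrient signalling, averaged 1118 ± 189 with shCHD4#2, against 643 ± 66.1 with shScramble (log2 fold change 0.79, SE 0.18, limma adjusted p = 0.0105), and cyclin G1, CCNG1, 5905 ± 332 with shCHD4#2, against 4124 ± 776 with shScramble (log2 fold change 0.54, limma adjusted p = 0.0125). TP53INP1, an autophagy and apoptosis factor, had values of 221, 235 and 193 with shCHD4#2, against 391, 533, 274, 289 and 341 with shScramble (log2 fold change -0.72, SE 0.21, limma adjusted p = 0.0377). TP53INP1 was higher with shCHD4#1 than with shScramble (2.24, limma adjusted p = 1.95e-05), and its direct difference between the hairpins was -2.95 (adjusted p = 9.32e-06).

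Cholesterol synthesis and uptake genes had 12 of 27 lower (44.4%) and 0 higher, with a median of -0.37. HMGCS1, an HMG-CoA synthase of the pathway, had values of 3694, 2432 and 2954 with shCHD4#2, against 4463, 5086, 5992, 5605 and 5881 with shScramble (log2 fold change -0.85, SE 0.15, limma adjusted p = 0.00202). SQLE, squalene epoxidase, averaged 18834 ± 2224 with shCHD4#2, against 29521 ± 3818 with shScramble (log2 fold change -0.65, SE 0.12, limma adjusted p = 0.00256), and the isomerase IDI1 was at -0.50 (adjusted p = 0.00466). No library of either group crossed the other in HMGCS1. By 48 h, 22 of the 27 were lower, beside 20.3% of all genes. By the test of the difference 11 had a larger fall at 48 h than at 24 h, where 0.989% of all genes differed in either direction. HMGCS1 was at -1.79 at 48 h, against -0.85 at 24 h (limma adjusted p of the difference = 0.0440). With shCHD4#1, 3 were lower and 2 higher at 24 h, beside 6.14% and 5.21% of all genes. In the direct contrast 3 were lower and 0 higher with shCHD4#2 than with shCHD4#1, beside 5.62% and 4.0%. Without shCHD4#2 replicate 2 the number of lower genes was 4, in the first library kind alone 4, and in the second 8.

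The stress response regulated by ATF4 and the unfolded protein response had 4 of 30 genes higher (13.3%) and 3 lower (10%). ATF5, a transcription factor of the integrated stress response, had values of 2340.4, 4306 and 3459 with shCHD4#2, against 1094, 1070.4, 1222, 1005 and 1528 with shScramble (log2 fold change 1.48, SE 0.18, limma adjusted p = 1.37e-04). TRIB3, a pseudokinase induced by ATF4, had values of 2060.3, 2774 and 2567 with shCHD4#2, against 889.5, 763, 1359, 978 and 1487 with shScramble (log2 fold change 1.21, SE 0.22, limma adjusted p = 0.00271), and DDIT3, the factor CHOP, averaged 1421 ± 364 with shCHD4#2, against 779 ± 166 with shScramble (log2 fold change 0.86, SE 0.19, limma adjusted p = 0.00923). Each was higher than with shCHD4#1 in the direct contrast, ATF5 by 1.42 (limma adjusted p = 5.89e-04), TRIB3 by 1.34 (adjusted p = 0.00341) and DDIT3 by 1.06 (adjusted p = 0.00623). The 3 lower members, named after their values were seen, were the endoplasmic reticulum chaperone HSPA5, the secreted factor MANF and EDEM1, which helps to clear misfolded proteins.

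**Figure D4:**
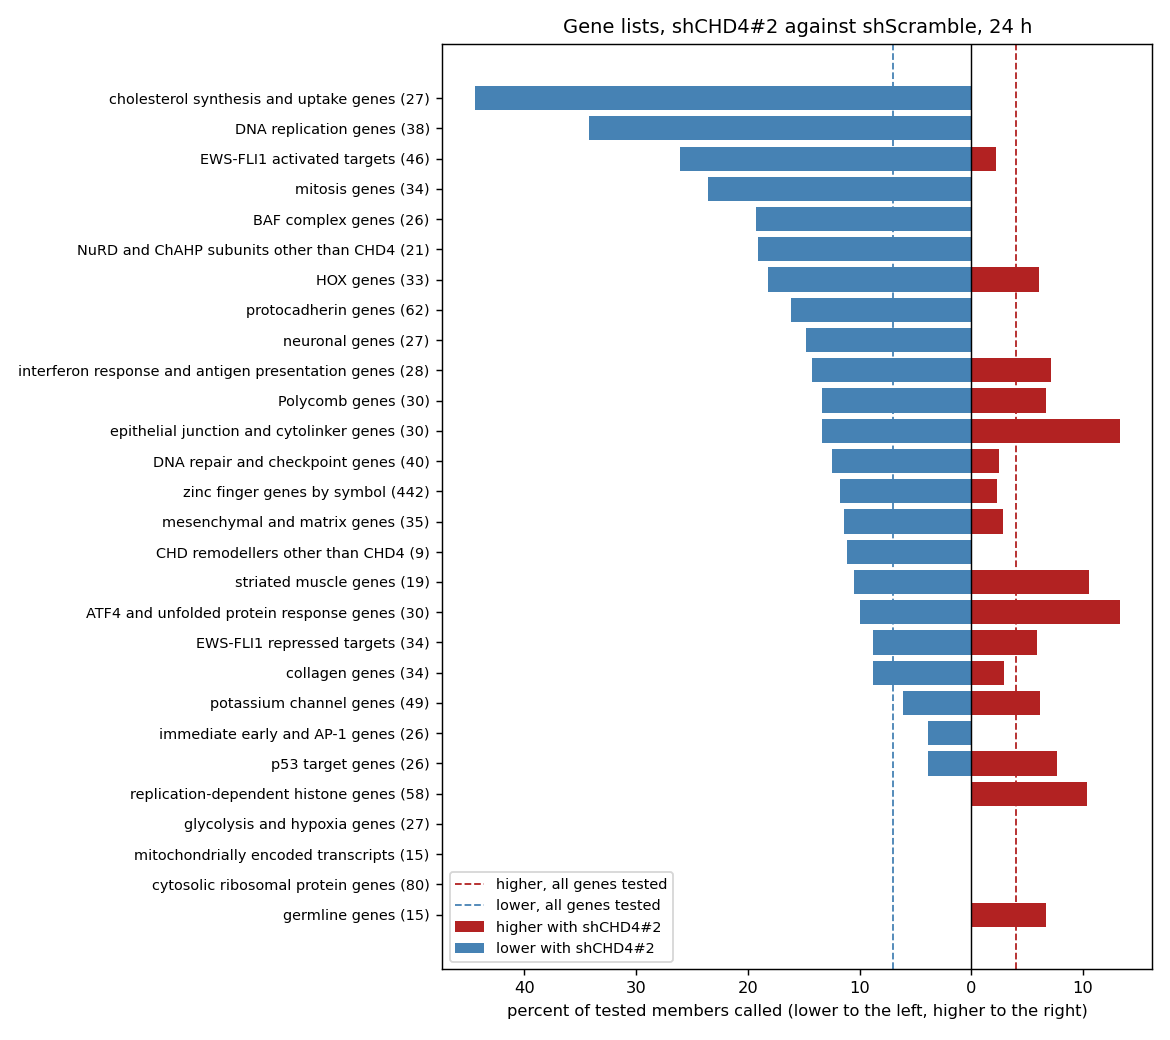
Percent of the tested members of 28 gene lists called lower (to the left) and higher (to the right) with shCHD4#2 against shScramble at 24 h, with the number tested in brackets; dashed lines mark the shares over all genes tested, 7.01% lower and 4.05% higher. Cholesterol and replication genes reach furthest to the left, and epithelial junction genes and ATF4 genes furthest to the right.

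Replication-dependent histone genes had 6 of 58 higher (10.3%) and 0 lower, with a median of 0.0071. Besides H2BC1 and H2BC14, H2BC3 had values of 250.3, 312 and 574 with shCHD4#2, against 66.7, 48.6, 121, 89.6 and 165 with shScramble (log2 fold change 1.97, SE 0.37, limma adjusted p = 0.00353), and H2AC1, a testis form of H2A, averaged 39.2 ± 28.8 with shCHD4#2, against 2.20 ± 0.874 with shScramble (log2 fold change 3.39, limma adjusted p = 7.32e-04). H2BC3 was higher than with shCHD4#1 by 1.83 (adjusted p = 0.0127). Histone genes are near-identical copies, so which copy the reads came from is uncertain. Small nuclear RNA genes were higher in 17 of 66 (25.8%) and lower in 1, with a median of 0.54, again a family of near-identical copies. Of lincRNA genes 4.37% were higher and 2.25% lower, and of antisense genes 4.09% and 1.76%, beside 4.25% and 9.27% of protein-coding genes. Processed pseudogenes had a median of 0.16, which was 0.0012 with library kind as a term.

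BAF remodelling genes were lower in 5 of 26 (19.2%) and higher in 0. PBRM1, the polybromo subunit, whose coding sequence holds 8 copies of the first word, had values of 4646, 3956 and 4495 with shCHD4#2, against 7825, 8071, 7132, 7134 and 7241 with shScramble (log2 fold change -0.78, SE 0.078, limma adjusted p = 4.03e-05). SMARCA4, the BAF ATPase, was at -0.37, BCL7A at -0.59 and SMARCC1 at -0.36, whose adjusted p was 0.0775 with a replicate block. Polycomb genes had 2 of 30 higher (6.67%) and 4 lower (13.3%). PHF19, an accessory subunit of the methyltransferase, had values of 392, 430.5 and 417 with shCHD4#2, against 208, 237, 260.2, 211 and 320.2 with shScramble (log2 fold change 0.76, SE 0.13, limma adjusted p = 0.00245), while PHC2 (-0.44), MTF2 (-0.36) and CBX2 (-0.45) were lower. Zinc finger genes named ZNF were lower in 52 of 442 (11.8%) and higher in 10 (2.26%), beside 9.27% and 4.25% of protein-coding genes. ZNF184 had values of 930.4, 892 and 1078 with shCHD4#2, against 1609, 1571, 1573, 1639 and 1795 with shScramble (log2 fold change -0.76, SE 0.094, limma adjusted p = 1.74e-04), ZNF730 was at -0.87, ZNF333 at -0.91 and ZNF300 at -0.71. Without shCHD4#2 replicate 2, 24 zinc finger genes and 1 BAF gene were lower.

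Protocadherin genes, whose clustered members give neurons a surface identity, were lower in 10 of 62 (16.1%) and higher in 0, with a median of -0.31. PCDHB5 had values of 1323, 1234 and 1482 with shCHD4#2, against 2557, 2715, 2685, 2396 and 2996 with shScramble (log2 fold change -0.99, SE 0.099, limma adjusted p = 4.03e-05), and PCDHB2 was at -0.84, PCDHB16 at -1.03 and PCDHB11 at -0.94. With a replicate block 26 of the 62 were lower, and with library kind as a term 30. In the direct contrast 14 were lower and 2 higher than with shCHD4#1, beside 5.62% and 4.0% of all genes. HOX genes, which pattern the body axis, were lower in 6 of 33 (18.2%) and higher in 2 (6.06%). HOXD13, of the limb tip, had values of 3824, 3117 and 4431 with shCHD4#2, against 7399.6, 6679, 8279, 7696 and 8559 with shScramble (log2 fold change -1.04, SE 0.13, limma adjusted p = 1.55e-04). HOXA9 averaged 162 ± 37.3 with shCHD4#2, against 318 ± 27.7 with shScramble (log2 fold change -0.99, limma adjusted p = 4.10e-04), with HOXA10 at -0.75 and HOXB6 at -0.74.

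Neuronal genes were lower in 4 of 27 (14.8%) and higher in 0. TUBB3, the neuronal beta tubulin, had values of 1750.5, 1109 and 1585 with shCHD4#2, against 2504, 2689, 3520.1, 3544 and 4191 with shScramble (log2 fold change -1.15, SE 0.17, limma adjusted p = 7.64e-04), and DCX, a microtubule protein of migrating neurons, 229, 196 and 191 with shCHD4#2, against 475, 503, 379.6, 331 and 425 with shScramble (log2 fold change -1.03, SE 0.16, limma adjusted p = 8.33e-04). ELAVL3 was at -1.35 and the granin SCG2 at -0.81. Both TUBB3 and DCX were lower than with shCHD4#1 (direct difference -0.83 for TUBB3, limma adjusted p = 0.0153, and -0.999 for DCX, adjusted p = 0.00291). All 4 neuronal genes named were below every control in each shCHD4#2 library, as were 1362 of all 1474 genes called lower.

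Striated muscle genes were higher in 2 of 19 (10.5%) and lower in 2 (10.5%), at low levels. The muscle filament desmin, DES, averaged 31.7 ± 20.1 with shCHD4#2, against 5.58 ± 2.28 with shScramble (log2 fold change 2.09, limma adjusted p = 0.00965), and RYR1, the calcium release channel, 56.4 ± 18.4 with shCHD4#2, against 19.7 ± 19.9 with shScramble (1.79, adjusted p = 0.0367). CASQ2 (-1.96), a calcium buffer whose coding sequence holds 9 copies of the first word, and the myogenic factor PAX7 (-1.03) were lower. The coding sequence of RYR1, which was higher, holds 2 copies. In DES, RYR1 and PAX7 the groups overlapped. Without shCHD4#2 replicate 2 none of the 19 was called by limma.

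Epithelial junction genes were called in both directions, 4 of 30 higher (13.3%) and 4 lower (13.3%). Beside PPL and MISP, which were higher, the tight junction gene MARVELD3 was lower, at 112 ± 33.9 with shCHD4#2, against 227 ± 14.4 with shScramble (log2 fold change -1.06, SE 0.19, limma adjusted p = 0.00290). Mesenchymal and matrix genes were higher in 1 of 35 (2.86%) and lower in 4 (11.4%), with the proteases MMP14 and MMP2 at -0.67 and -0.61. TNC and COL3A1, given above, are counted among the lower genes here too, and COL3A1 also among the lower collagen genes. Of collagen genes 1 of 34 was higher (2.94%) and 3 were lower (8.82%), beside 4.05% and 7.01% of all genes. The higher gene was COL25A1 (0.90), and among the lower were COL4A2 (-0.52) and COL7A1 (-0.64). COL7A1 stood at 0.94 with shCHD4#1, a direct difference of -1.59 (limma adjusted p = 4.70e-04). Germline genes had 1 of 15 higher, the meiotic cohesin STAG3 (0.78, adjusted p = 0.0333).

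Potassium channel genes had 3 of 49 higher (6.12%) and 3 lower (6.12%), beside 4.05% and 7.01% of all genes. KCNH3, a brain channel, had values of 354, 475 and 445 with shCHD4#2, against 208, 164, 146, 158 and 150.5 with shScramble (log2 fold change 1.36, SE 0.15, limma adjusted p = 9.35e-05), KCNJ4 was at 1.43 and KCNN1 at -0.55. Interferon response and antigen presentation genes were higher in 2 of 28 (7.14%) and lower in 4 (14.3%). BST2, the antiviral tether, had values of 334, 352 and 515 with shCHD4#2, against 224, 200.1, 239.9, 183 and 222 with shScramble (log2 fold change 0.88, SE 0.17, limma adjusted p = 0.00420), and the peptide transporter TAP2 was at 1.03 (adjusted p = 0.0183), while IFI44 (-0.81) and IFI44L (-0.65) were lower. Of 26 immediate early genes 1 was lower, the phosphatase DUSP1 (-0.55), and 0 were higher. With a replicate block its adjusted p was 0.0514 and 0 of the 26 were called.

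In 3 lists limma called no member. They were 80 cytosolic ribosomal protein genes, with a median of -0.029, 27 glycolysis and hypoxia genes, with a median of -0.059, and 15 mitochondrially encoded transcripts, with a median of -0.016. At an unadjusted limma p under 0.05 stood 3, 1 and 0 of them in the same order, edgeR called 1, 0 and 0, and DESeq2 called 3, 0 and 0. Over all genes the counts fell from 851 to 273 higher and from 1474 to 613 lower without shCHD4#2 replicate 2. Counts of several lists likewise rested on this replicate. Without it the ATF4 list had 2 higher and 0 lower, p53 targets 0 and 0, epithelial junction genes 2 and 1, Polycomb genes 1 and 1, HOX genes 0 and 4, mesenchymal genes 0 and 2, collagen genes 0 and 0, potassium channel genes 1 and 0, interferon genes 1 and 3, germline genes 0 higher, immediate early genes 0 lower, EWS-FLI1 repressed targets 1 and 1, and zinc finger genes 3 higher, while NuRD and ChAHP members had 4 lower and protocadherin genes 7. With a replicate block 8 repair genes, 8 mesenchymal genes and 5 collagen genes were lower, and 7 ATF4 genes, 4 Polycomb genes, 3 collagen genes, 20 zinc finger genes, 2 mesenchymal genes, 2 germline genes and 2 targets that EWS-FLI1 activates were higher. The block called 1 glycolysis gene higher and 1 ribosomal protein gene lower.

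Promoters of 12137 tested genes on chromosomes other than 8, the 300 bases around the start in RefSeq on GRCh38, were searched for GGAAGGAA, a pair of the core repeats that EWS-FLI1 binds, and TATAAA, on both strands. GGAAGGAA was in 2.86% of promoters of higher genes, 3.92% of lower genes and 3.29% of all, and TATAAA in 6.94%, 5.79% and 6.61%. The median number of CG dinucleotides was 24 in higher genes, 27 in lower genes and 25 in all. A match is a description of these letters only.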

How the data were processed

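Total RNA of SK-N-MC cultures was sequenced in pairs after stranded library preparation, per the labels' protocols. The submitters' processing notes name FastQC 0.11.7, HISAT2 2.1.0, SAMtools 1.7, featureCounts 1.6.0, DESeq2 1.34.0 and GRCh38, while annotation and strand setting were not given there. The deposited signal is a normalised count, in which the authors scaled the reads of every gene by the size factor of its library. The authors' deposited table of this comparison gives log2 fold changes with p-values and adjusted p-values, and its p is exactly 1 for 68.8% of genes. Its calls may therefore rest on a test unlike those used here. All values of a library were whole multiples of 1 read within a tolerance of 0.02 (100% of values), so reads were recovered. Depth was 49724797 to 64775441 reads per library at 24 h in the groups compared.

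Genes were tested with limma-trend (limma 3.58.1, R 4.3.3) on log2-transformed values with a pseudocount of 1 added, which understates changes of low genes. It covered 21025 of 35488 genes, those with a mean of at least 10 over 28 libraries. All 14 libraries at 24 h were fitted in 4 groups, shCHD4#2, shCHD4#1, shFLI1 and shScramble, which share 1 estimate of the spread. Tests were two-sided, adjusted by Benjamini-Hochberg over all genes tested and called at 0.05. The 48 h libraries were fitted alike, and the difference between times over all 28 libraries. Alternatives included edgeR 4.0.16, which called 993 genes higher and 1331 lower, and DESeq2 1.42.0 on recovered reads, other pseudocounts, filters and scalings, library kind as a term or each kind alone, a replicate block and leaving out each library. The main limma fit alone was run on simulated reads with known changes. These had the same dispersion in every gene and no effect of library kind or replicate, so they say nothing of those effects. No 2 libraries of a group were alike within sampling noise.

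Replicate numbers are those of the titles. Same-numbered shCHD4#2 and shScramble libraries deviated together (correlations 0.355, 0.339 and 0.615). Replicates 1 and 2, of unlike number but the same kind, also correlated across groups (0.164 and 0.223). Pairs of unlike kind ran from -0.453 to -0.368, so pairing and library kind cannot be told apart. The numbers were taken to pair the samples in the replicate block only, and the main fit holds no pairing term. Numbers and library kinds overlap in shCHD4#2, shCHD4#1 and shScramble. The shFLI1 libraries at 24 h, at 0.348% to 0.381% processed pseudogene reads, were all taken as the second kind. The block thus joins shFLI1 replicates 1 and 2 with libraries of the other kind, and is not a clean pairing. The cause of the kinds was not tested.

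Members, gene lists and the naming rule were chosen with earlier results of these data known. Named were CHD4, the 12 largest rises and falls among called genes with no overlap between groups and a mean of at least 100 in the higher group (clone names skipped), up to 4 called members of each of 28 lists by adjusted p, and all NuRD and ChAHP members. Some genes under this rule are not reported here. Others are said to be named after their values were seen. Positions are those of GENCODE release 29 on GRCh38, in which 34232 genes were found.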

Additional observations from a re-analysis of the deposited data

Results flagged for a closer look

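In 6 of the 123 named genes 1 of the 5 shScramble libraries at 24 h stood far from the other 4. Chance gives this in about 1 of 20 groups, and the count is near that share. The library was replicate 2 for ZMYND8 (9573 beside a next value of 8638), RYR1 (55.1 beside 13.7), IFI44L (4410 beside 2966) and MTA3 (3350 beside 2674). It was replicate 5 for MMP14 (3276 beside 2742) and replicate 1 for KCNH3 (208 beside 164).

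By the limma test of the difference, the effect of shCHD4#2 differed between 48 h and 24 h in 8 of the 123 named genes. All 8 were more negative at 48 h. Over all genes 208 of 21025 differed (0.989%), 146 more negative and 62 more positive at 48 h. Most named genes were chosen as called at 24 h, so these shares are not like for like. The difference of the log2 fold changes, 48 h minus 24 h, was -0.75 for TOP2B (adjusted p = 0.0123), -0.62 for ZMYND8 (adjusted p = 0.0430), -1.29 for HAP1 (adjusted p = 0.00617) and -1.15 for IFI44L (adjusted p = 0.0155). It was -0.94 for HMGCS1 (adjusted p = 0.0440), -0.85 for SQLE (adjusted p = 0.0405), -0.55 for PBRM1 (adjusted p = 0.0467) and -0.98 for KCNN1 (adjusted p = 0.0270).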

How the results depend on the processing

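The number of genes higher with shCHD4#2 than with shScramble, 851, became 1962 with library kind as a term, 418 with only the groups compared in the fit, 231 in the second kind alone and 59 in the authors' deposited table, and it ran from 273 to 833 when 1 library was left out. The number lower, 1474, became 2722, 849, 520 and 88 in the same order, and ran from 613 to 1488. With a replicate block 1258 were higher and 1809 lower, in a fit that also joins shFLI1 replicates 1 and 2 with libraries of the other kind. The number different between hairpins, 2022, became 4455 with library kind as a term, 3482 with a replicate block and 283 in the second kind, and ran from 874 to 1721 when 1 library was left out. The number that differed between times, 208, became 650 with the block and 954 with library kind. The authors' deposited table may rest on an unlike test, so its counts and calls, here and below, are not like for like. The causes were not tested. In the second kind alone shCHD4#2 has 1 library, assumed to vary like the other groups. The fall of CHD4 kept its call in every alternative.

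Of 2198 values of 105 other called named genes under 21 alternatives, 2012 kept their call, 186 lost it and 0 changed sign, and the authors' deposited table called 31 of the 105. Of 106 called named genes, CHD4 included, 71 stayed called whichever library was left out, and 54 in all 21 alternatives. The replicate block ended the calls of TIMP3, DUSP1 and SMARCC1, made calls of CHD5 and HDAC2, and changed that of no other gene reported here under the naming rule.

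Of 17 NuRD and ChAHP members that had not passed the test, CHD5 was called with DESeq2 (0.82), library kind as a term (1.05), the replicate block (1.14) and the first kind alone (1.34), HDAC2 with library kind (-0.26), the block (-0.28) and without shCHD4#2 replicate 3 (-0.46), ADNP with library kind (-0.26), and MTA3 without shScramble replicate 2 (0.34). Sign changes occurred in members of NuRD and ChAHP that had not passed the test. Quantile normalisation gave HDAC1 0.035, CBX5 0.028, CDK2AP1 0.026, MTA1 0.082 and MBD3 0.098. The second kind alone gave HDAC1 0.083, MTA1 0.054 and MBD3 0.13, and the first kind gave CDK2AP1 0.10 and SALL1 0.057. Library kind as a term gave CDK2AP1 0.025 and MBD3 0.033, the replicate block 0.045 and 0.036, and the values of both in the authors' deposited table were 0.0050 and 0.034. edgeR gave MTA1 0.0056 and MBD3 0.0095. With 1 library left out, HDAC1 ran from -0.21 to 0.0038, RBBP7 from -0.050 to 0.11, MTA2 from -0.042 to 0.20, CDK2AP1 from -0.11 to 0.044, MTA1 from -0.056 to 0.015, SALL1 from -0.21 to 0.032, CHD3 from -0.087 to 0.096 and MBD3 from -0.13 to 0.080.

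The share of word-rich genes called lower, 52.7%, whose alternatives were chosen after seeing the data, ran from 39.2% to 59.5% in these fits and was 25.7% in the authors' deposited table.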
